A study of Drosophila melanogaster with 3 samples.

Results

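The calcium store and store-operated entry genes of adult fly nephrocytes are described here in 10 genes. These were chosen by name for their place in the pathway, with earlier results of these data known. They are *Stim*, *olf186-F* (listed as *Orai* in current gene name tables), *SERCA*, *Itpr*, *RyR*, *Plc21C*, *norpA*, *Cam*, *PMCA* and *MCU*, and all 10 were found among the 17768 genes of the tables. Nephrocytes of *Drosophila melanogaster* were taken from females aged 4 days that carried *Hand*-GFP together with *Klf15*-Gal4 and UAS-RFP over the CyO balancer, and that were kept at 25 °C on food with 6% sucrose. Large cells positive for GFP and RFP were sorted, and their messenger RNA was amplified with a low-input kit and sequenced in 3 libraries, replicates 1 to 3. Every library was a control on the normal diet, so there was no second condition to compare. The reporters mark pericardial nephrocytes through regulatory sequences of *Hand* and *Klf15*, and *Hand* is also active in the heart. Each replicate pooled 200 flies, while the submitters' notes speak of 100 to 200 nephrocytes without saying whether that is per replicate.

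Cells keep calcium in the endoplasmic reticulum at a far higher level than in the cytosol. When a receptor activates phospholipase C, the enzyme makes inositol trisphosphate, which opens the inositol trisphosphate receptor and lets calcium out of the store. Stim senses the emptied store and opens Orai channels in the plasma membrane, the step called store-operated entry, while SERCA pumps calcium back into the store. PMCA exports calcium from the cell, MCU takes it into mitochondria, and calmodulin passes the signal to kinases and phosphatases. In insect nephrocytes store-operated entry has been linked to endocytosis and to the turnover of Amnionless, part of the receptor for protein uptake.

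Levels are given in TPM, the share of a library's transcripts that RSEM assigned to a gene after correction for transcript length, so that genes can be set side by side within a library. The expected counts behind them summed to between 7808930 and 8801238 per library. All 7 nephrocyte markers reached 1 TPM in every library, led by *Amnionless* at 5794 ± 591 and *Hand* at 4697 ± 459 TPM (mean ± SD, n = 3). The common biological coefficient of variation was 25.7% over 7258 genes (edgeR, no groups). Library 2 held less of long transcripts. In the longest eighth of detected genes the median log2 difference in TPM between library 2 and the mean of libraries 1 and 3 was -0.90, and in the shortest eighth it was 0.13. Counting intervals below are exact Poisson intervals at 95%. They cover counting error only, since amplified reads are not independent molecules. In bulk RNA, fewer cells of a type and less RNA per cell cannot be told apart.

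All 10 genes were detected, that is, were at 1 TPM or more in every library, as were 40.5% of all listed genes and 49.8% of protein-coding genes. The levels spanned a wide range. *SERCA* and *Cam* were highest at 416 ± 230.3 and 358 ± 73.3 TPM, followed by *PMCA* at 192 ± 39.9 and *Stim* at 127 ± 7.59 TPM. These 4 exceeded a mean of 100 TPM, which 6.75% of listed genes did. *olf186-F* was intermediate at 35.9 ± 3.41 TPM, and *MCU* and *Plc21C* were at 12.0 ± 2.20 and 10.9 ± 7.55 TPM. *Itpr*, *RyR* and *norpA* were lowest, at 2.82 ± 1.3, 2.53 ± 0.93 and 1.25 ± 0.19 TPM (SD, n = 3 for each). The median detected gene had a mean of 20.9 TPM, and 5 of the 10 lay above it. Pumps, sensor and calmodulin were therefore abundant and the release channels scarce in the same libraries. *Itpr* and *RyR* also had the longest transcripts of the 10, averaging 10297 and 15816 bases. Whether amplification lost long transcripts in all 3 libraries was not tested.

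**Figure D1:**
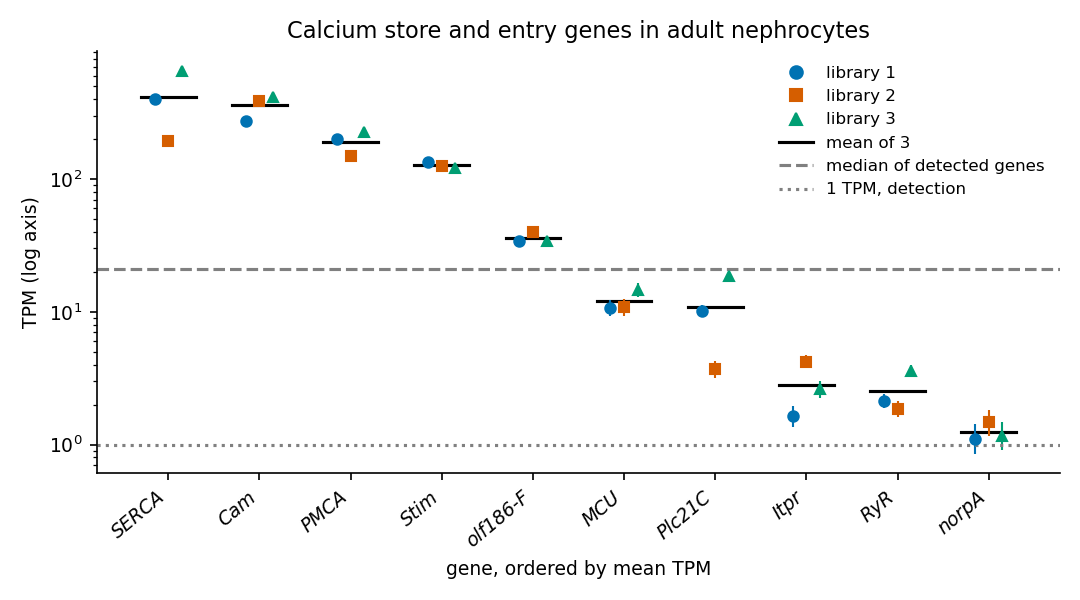
TPM of the 10 genes on a log axis, with 1 point per library, the exact Poisson 95% interval as a vertical bar (smaller than the symbol for abundant genes) and the mean of 3 libraries as a horizontal line. *SERCA*, *Cam*, *PMCA* and *Stim* lie above 100 TPM by their means, while *Itpr*, *RyR* and *norpA* lie near the 1 TPM line, and the points of *SERCA*, *Plc21C* and *Itpr* are spread most widely.

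The order of the means was firm only in its broad steps. For each pair of genes the log2 ratio of TPM was taken inside every library, and a pair was called apart where the sign was the same in 3 of 3 libraries and the mean exceeded 2 SD. Of 45 pairs, 41 had the same sign in every library and 35 were apart. Among the 9 pairs of neighbours in the order, 2 were apart, *Stim* over *olf186-F* and *olf186-F* over *MCU*. The latter had a log2 ratio of 1.59 ± 0.34 (SD, n = 3). The other 7 neighbours did not differ beyond this spread. The 4 pairs without a common sign were all neighbours. *SERCA* and *Cam* changed places in library 2, as did *Plc21C* and *Itpr*, *MCU* was below *Plc21C* in library 3, and *Itpr* was below *RyR* in libraries 1 and 3. With 3 libraries the exact two-sided sign-flip permutation test cannot give a p below 0.25, and the smallest adjusted p over 45 pairs was 0.274, so no pair could pass 0.05.

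The calcium sensor of the store was more abundant than the channel it opens. *Stim* (FBgn0045073) lies on the minus strand of chromosome X from 15934495 to 15940451 in the BDGP6.54 annotation, with 4 transcripts. Its level was 135.3, 126.3 and 120.2 TPM in libraries 1, 2 and 3. These 3 values were the closest together of any of the 10 genes, with a coefficient of variation of 5.96% against a median of 19.3% over detected genes. *olf186-F* (FBgn0041585), the only Orai gene of the fly, lies on 2R from 17843442 to 17860582 with 5 transcripts. It was at 34.1, 39.9 and 33.9 TPM, and was nearly as even, with a coefficient of variation of 9.49%. *olf186-M*, whose span overlaps it on the same strand, shared no exon bases with it, and all counts of *olf186-F* were whole numbers within 0.005.

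*Stim* exceeded *olf186-F* by 3.97-fold, 3.17-fold and 3.55-fold in libraries 1, 2 and 3. The log2 ratio was 1.83 ± 0.16 (SD, n = 3; exact sign-flip p = 0.25, adjusted p = 0.274), with *Stim* higher in 3 of 3 libraries. Transcripts of *Stim* and *olf186-F* have similar mean lengths of 2237 and 2216 bases. Removing the trend on length left the ratio at 1.83, but with lengths this similar it could hardly have changed it.

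Refilling of the store was represented by the gene with the highest mean, although *Cam* was above it in library 2. It was also among the most variable. *SERCA* (FBgn0263006), which encodes the calcium pump of the endoplasmic reticulum, lies on the minus strand of 2R from 23925077 to 23935884 with 9 transcripts. It was at 402.2, 193.6 and 653.5 TPM, on 11558, 6075 and 18180 expected counts. Library 3 was 3.38-fold above library 2, and the 3 counting intervals did not overlap. The same held for *Cam*, *PMCA*, *Itpr* and *Plc21C*, and the share of detected genes for which it holds was not computed. *SERCA* ranked 371st of 17768 genes by its mean, and 270th in library 3 but 668th in library 2. Its mean transcript length, which RSEM weights by the isoforms it finds, was 4426 bases in library 2 and 4037 and 3934 bases in libraries 1 and 3. Levels of the single isoforms were not analysed here. *CG2812*, on the opposite strand, shared 1325 exon bases with it but was at most at 0.37 TPM.

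The peptides that inhibit SERCA in fly muscle, the sarcolambans, were like *SERCA* lowest in library 2 and highest in library 3. *SclB* was at 592.4, 291.2 and 969.3 TPM, a log2 ratio to *SERCA* of 0.57 ± 0.02 (SD, n = 3). *SclA* was at 50.0, 33.8 and 107.8 TPM, with a less even log2 ratio of -2.71 ± 0.26 (SD, n = 3). In the annotation *SclA* and *SclB* span the same interval of 2L, from 16837972 to 16841884, and share 1027 exon bases, so the split of reads between them is uncertain. Their sum was 642.4, 325.0 and 1077 TPM. The log2 ratio of the sum, most of which was *SclB*, to *SERCA* was 0.71 ± 0.04 (SD, n = 3), steadier than *SERCA* itself, whose log2 TPM had an SD of 0.88.

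Among 5045 other detected genes with a mean of at least 10 TPM, *SclB* was the second nearest to *SERCA* in its pattern over the 3 libraries, by Euclidean distance between log2 TPM centred on each gene's mean (0.022). *Nuak*, which encodes a kinase of the AMPK family, was the nearest (0.014) and *Mbs*, which encodes the targeting subunit of myosin phosphatase, the third (0.035). *SclA* was at place 174, and the muscle and heart genes in this set lay between place 16 (*TpnC73F*) and place 1446 (*Mhc*). A pattern over 3 libraries is a description only. *jp*, which encodes junctophilin, a tether between the endoplasmic reticulum and the plasma membrane, was at 42.6, 23.5 and 84.6 TPM and was likewise lowest in library 2 and highest in library 3.

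Genes of striated muscle and heart moved in the same way. Of 15 such genes 13 were detected, 12 of them lowest in library 2 and 13 highest in library 3. Their summed level was 6397, 3487 and 10651 TPM, led by *Mlc2* at 1230.1 ± 591 and *Mlc1* at 1154 ± 484 TPM, while *fln*, which marks flight muscle, was at 0 in every library. *Mlc2* exceeded *SERCA* 3.01-fold, 3.35-fold and 2.80-fold in libraries 1, 2 and 3. The part of muscle or heart RNA in the levels of *SERCA*, *SclA*, *SclB* and *jp* was not tested. Being lowest in library 2 and highest in library 3 was common, since 32.2% of detected genes were so.

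**Figure D2:**
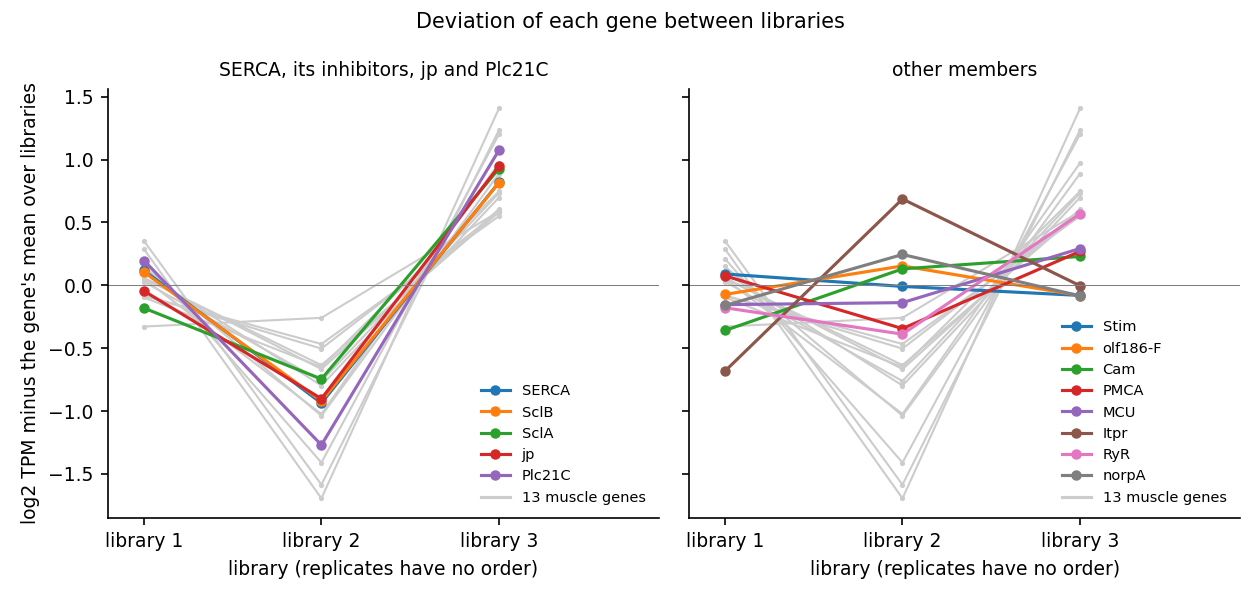
Deviation of each gene's log2 TPM from its own mean over 3 libraries, in log2 units, with the 13 detected muscle and heart genes in grey in both panels. In the left panel *SERCA*, *SclA*, *SclB*, *jp* and *Plc21C* are lowest in library 2 and highest in library 3, as most of the grey lines are, while in the right panel *Itpr*, *norpA* and *olf186-F* are highest in library 2 and *Stim* is nearly flat.

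Export from the cell was represented by *PMCA* (FBgn0259214), the plasma membrane calcium pump, on the minus strand of chromosome 4 from 328193 to 358917 with 11 transcripts. It was at 198.8, 148.6 and 227.5 TPM, lowest in library 2 and with a coefficient of variation of 20.8%. *Rnf11*, on the opposite strand, shared 3107 exon bases with it and was at 28.6, 42.7 and 33.7 TPM. None of the 3 counts of *PMCA* was a whole number within 0.005, so RSEM divided some reads between *PMCA* and another gene, and its level is uncertain by the amount so divided. *SERCA* was above *PMCA* in 3 of 3 libraries, least in library 2. The log2 ratio was 0.97 ± 0.57 (SD, n = 3; exact sign-flip p = 0.25, adjusted p = 0.274), which is within 2 SD of 0. *Calx*, the sodium and calcium exchanger and the other main route of export, was at 3.96, 1.20 and 8.51 TPM, so that *PMCA* exceeded it 50.2-fold, 123.9-fold and 26.7-fold. *SPoCk*, the calcium pump of the secretory pathway, was at 5.89, 3.98 and 8.32 TPM, and *SERCA* exceeded it at least 48.6-fold in every library.

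The 2 release channels of the store were both scarce. *Itpr* (FBgn0010051), the inositol trisphosphate receptor, lies on 3R from 5517117 to 5539411 with 3 transcripts. It was at 1.63, 4.21 and 2.61 TPM, on 124, 318 and 198 expected counts. The counting intervals were 1.36 to 1.94, 3.76 to 4.70 and 2.26 to 3.00 TPM and did not overlap. *RyR* (FBgn0011286), the ryanodine receptor, which releases calcium from the reticulum of muscle and neurons, lies on 2R from 8860364 to 8888097 with 10 transcripts. It was at 2.14, 1.85 and 3.59 TPM, on 252, 215 and 424 expected counts. The interval of library 3 (3.26 to 3.95 TPM) lay above those of libraries 1 and 2, which overlapped.

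Which of the release channels was higher depended on the library. In library 2 *Itpr* was 2.28-fold higher than *RyR*, and in libraries 1 and 3 it was lower. The log2 ratio of *Itpr* to *RyR* was 0.11 ± 0.93 (SD, n = 3; exact sign-flip p = 1, adjusted p = 1), and without replicate 2 it was -0.43. *SERCA* exceeded *Itpr* by factors of 246.7, 46.0 and 250.4 in libraries 1, 2 and 3, with a mean log2 ratio of 7.15 ± 1.41 (SD, n = 3; exact sign-flip p = 0.25, adjusted p = 0.274). *SERCA* and *PMCA* together exceeded *Itpr* and *RyR* together 159.4-fold, 56.5-fold and 142.1-fold, and the log2 ratio of the sums was 6.76 ± 0.82 (SD, n = 3). The gap between pumps and release channels was thus several times the spread between libraries, although TPM says nothing of how many ions each protein moves. Any loss of long transcripts common to the 3 libraries would enter this gap, and was not tested.

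*Itpr* went against the library difference on length. Its transcripts average 10297 bases, and the detected genes nearest to it in length had a median log2 difference of -0.96 between library 2 and the mean of libraries 1 and 3. *Itpr* was at 0.99, above 99.5% of them. Among the 142 of these genes whose mean TPM lay within 2-fold of *Itpr*, a comparison added once the values were known, the median was -0.56 and *Itpr* lay above 99.3%. *RyR*, with transcripts averaging 15816 bases, was at -0.56, above the median of genes of similar length (-0.95) and close to that of genes of similar length and level (-0.52). For *RyR* the nearest genes ran from 5517 to 33836 bases, so the match on length is loose for both channels.

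Of the 2 phospholipase C genes of the beta class, *Plc21C* was the higher. *Plc21C* (FBgn0004611) lies on 2L from 305935 to 355566 with 6 transcripts. It was at 10.2, 3.69 and 18.7 TPM, on 437, 175 and 849 expected counts, and the counting intervals did not overlap. This 5.08-fold range was the widest of the 10 genes. A range of 2-fold or more was seen in 3 of the 10, *Plc21C*, *SERCA* and *Itpr*, and in 20.6% of detected genes. The 3 genes nearest to *Plc21C* in pattern were *hlk* (0.011), *CG13458* (0.013) and *SmydA-4* (0.039), and the muscle and heart genes among the 5045 lay between place 12 (*up*) and place 547 (*TpnC47D*).

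*norpA* (FBgn0262738), the phospholipase C of phototransduction in the eye, lies on chromosome X from 4322626 to 4365408 with 6 transcripts. It was at 1.11, 1.47 and 1.17 TPM, on 63, 79 and 66 expected counts, just above the detection threshold. The intervals overlapped, and those of libraries 1 and 3 reached below 1 TPM (0.85 and 0.90 TPM). No photoreceptor marker was detected. Of 10 such genes 9 were at 0 TPM in every library, and the tenth, the rhodopsin gene *ninaE*, was at 0.20 TPM on 2 counts in library 2 alone. *Plc21C* exceeded *norpA* by factors of 9.19, 2.51 and 16.0, with a mean log2 ratio of 2.84 ± 1.37 (SD, n = 3; exact sign-flip p = 0.25, adjusted p = 0.274). *sl*, the single phospholipase C gamma gene, was at 8.31, 6.67 and 10.2 TPM, and it exceeded *Plc21C* in library 2 alone.

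The G proteins upstream were far more abundant than the phospholipases. *Galphaq*, the alpha subunit that activates phospholipase C beta, was at 147.2, 155.1 and 169.6 TPM, with little spread. *Ggamma1* and *Gbeta13F*, widely used gamma and beta subunits, were at 828 ± 40.9 and 314 ± 44.9 TPM (SD, n = 3). *Gbeta76C* and *inaC*, the G protein beta subunit and protein kinase C of the eye, were at 0 TPM in every library. In all, 12 of 15 genes of Gq and inositol lipid signalling were detected, with a median of 16.7 TPM over the 15.

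Calmodulin was at the level of *SERCA*. *Cam* (FBgn0000253) lies on 2R from 12259398 to 12278809 with 5 transcripts, and was at 274.8, 386.0 and 413.3 TPM. It was lowest in library 1, and unlike *SERCA* it was above its mean in library 2. None of its 3 counts was a whole number within 0.005, and the noncoding gene *lncRNA:CR43900*, which shares 199 exon bases with it on the same strand, was at most at 1.38 TPM. *Cam* exceeded *PMCA*, the next in order and a pump that calmodulin activates, by 1.38-fold, 2.60-fold and 1.82-fold.

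Effectors of calmodulin were present at uneven levels. Of 11 genes of calcineurin and calmodulin kinases 9 were detected, with a median of 20.7 TPM over the 11. *CanB2*, a regulatory subunit of the phosphatase calcineurin, led at 317 ± 27.2 TPM, followed by *CaMKII* at 110 ± 45.9 TPM and *sra*, an inhibitor of calcineurin, at 101 ± 25.2 TPM (SD, n = 3). *Pp2B-14D*, a catalytic subunit, was lower, and *CanB2* exceeded it 9.32-fold, 19.9-fold and 9.89-fold. Of 9 other EF-hand calcium sensors 3 were detected, *Nca* at 133 ± 23.4, *Swip-1* at 7.60 ± 2.72 and *Eip63F-1* at 6.11 ± 2.76 TPM (SD, n = 3). *Acam*, a calmodulin relative of the testis, and *azot* were at 0 TPM in every library.

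The mitochondrial uniporter was low beside its partners. *MCU* (FBgn0042185), the pore subunit, lies on 3L from 6550738 to 6593940 with 8 transcripts and was at 10.7, 10.8 and 14.6 TPM. Its counting intervals were 9.23 to 12.3, 9.24 to 12.5 and 12.9 to 16.4 TPM, so that libraries 1 and 2 overlapped and library 3 lay just above them. *EMRE*, the small subunit that the pore needs in animals, was at 61.6 ± 4.45 TPM, and *MICU3*, of the EF-hand family that gates the pore by calcium, was at 56.2 ± 2.55 TPM (SD, n = 3). *EMRE* exceeded *MCU* 5.87-fold, 5.25-fold and 4.50-fold, and *MICU3* exceeded it 5.10-fold, 5.09-fold and 4.06-fold. The pore was below both of these partners in every library. *porin*, the channel of the outer membrane, was at 316 ± 63.1 TPM, and all 6 genes of this list were detected.

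Across the 10 genes, 4 were lowest in library 2 (*SERCA*, *Plc21C*, *RyR* and *PMCA*), where 48.4% of detected genes were lowest, and 6 were highest in library 3, where 52.3% of detected genes were highest. Both shares were near those of detected genes at large. *olf186-F*, *Itpr* and *norpA* were highest in library 2, as were 24.8% of detected genes. The median log2 difference between library 2 and the mean of libraries 1 and 3 was -0.11 over the 10 genes, beside -0.13 over all detected genes. Against genes of similar length 8 of the 10 were above the median, and 2 were below it, *SERCA* (-1.40 against -0.73) and *Plc21C* (-1.88 against -1.06). Against genes of similar length and level, a comparison added once the values were known, 7 were above. *norpA*, just above 1 TPM, could hardly be lower in library 2 and still count as detected. With the trend on length removed *SERCA* and *Plc21C* were still lower in library 2, at -0.73 and -0.86, while *PMCA* went from -0.52 to 0.26.

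**Figure D3:**
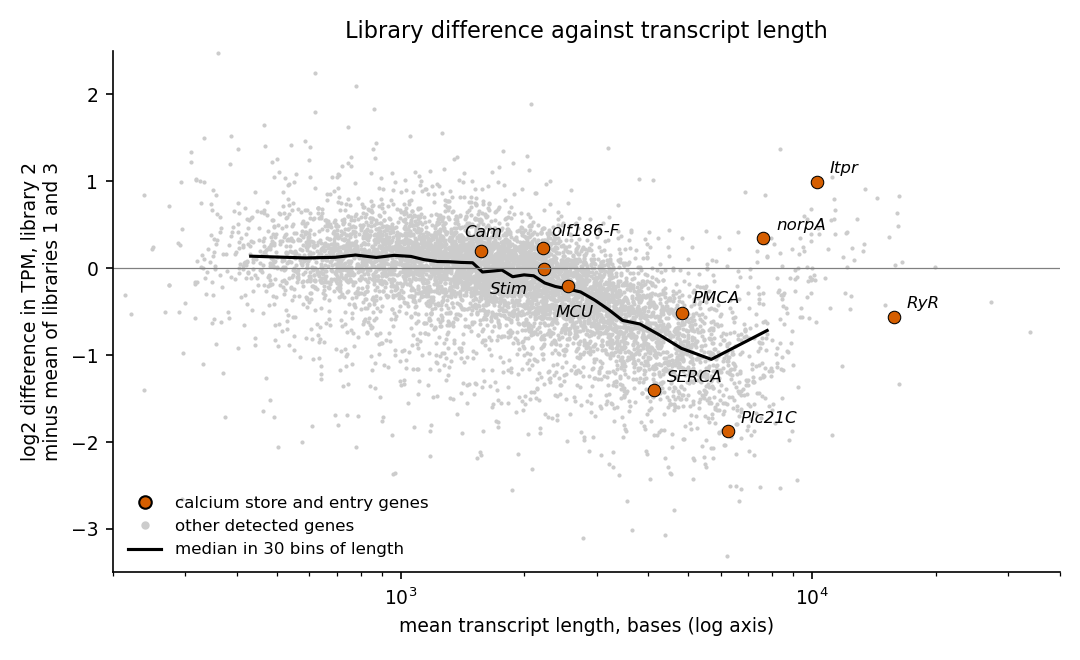
Log2 difference in TPM between library 2 and the mean of libraries 1 and 3 (0.1 TPM added) against mean transcript length in bases on a log axis, for 7193 detected genes in grey and the 10 calcium genes in orange, with the median in 30 bins of length as a black line. The line is nearly flat among short transcripts, then falls with length and rises again in its last bin. *SERCA* and *Plc21C* lie below it, and *Itpr* and *norpA* lie above it.

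Most of the other genes examined for calcium handling and signalling were detected. Beside the 10, 68 such genes were examined in 7 lists, chosen with earlier results of these data known. The lists also hold genes that do not themselves move or bind calcium, such as G protein subunits and septins. Of the 68, 53 (77.9%) were detected, beside 40.5% of all listed genes and 49.8% of protein-coding genes. Detection was lowest among the other EF-hand sensors, at 3 of 9. The lists differed in level. Genes of calcium handling in the endoplasmic reticulum and Golgi had the highest median, 271 TPM over 10 genes, all detected. They were led by *Calr*, which encodes the calcium-binding chaperone calreticulin, at 648.4, 1083 and 804.6 TPM, and *Gp93*, a chaperone of the same compartment, at 709 ± 60.2 TPM (SD, n = 3). *Calr* was highest in library 2, where *SERCA* was lowest. Genes of contacts between the reticulum and plasma membrane, with the septins, had a median of 94.8 TPM over 8 genes, and 7 were detected. *Septin4*, *Septin2* and *Septin1* led at 139 ± 29.3, 131 ± 16.7 and 99.6 ± 14.7 TPM (SD, n = 3). In the fly, a septin, not necessarily any of those just named, has been shown to restrain store-operated entry in neurons.

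The plasma membrane exchangers and voltage-gated channel subunits examined were low. Of 9 plasma membrane exchangers and subunits of voltage-gated channels 6 were detected, with a median of 3.18 TPM over the 9 and a highest mean of 5.47 ± 3.34 TPM, for *stj*, a channel subunit of the alpha2-delta type. *Ca-alpha1D*, the pore of the L-type channel, was at 3.13, 4.87 and 7.31 TPM, and *cac*, the pore of the synaptic channel, had 2 counts, both in library 2. *olf186-F*, at 35.9 TPM, was thus above all 9 by its mean. Markers of other cells were few. Besides the muscle genes, 3 of 10 hemocyte genes were detected, led by *crq* at 352 ± 42.8 and *srp* at 121 ± 56.9 TPM, 1 of 6 genes of neurons and glia, *nrv2*, at 91.4 ± 43.9 TPM (*elav* was next at 1.35 ± 0.55 TPM), and 1 of 10 fat body genes, *Obp99b*, at 8.73, 12.8 and 299.0 TPM (*Yp3* was next at 1.28 ± 0.53 TPM). The share of such cells in the levels of the calcium genes was not tested.

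**Figure D4:**
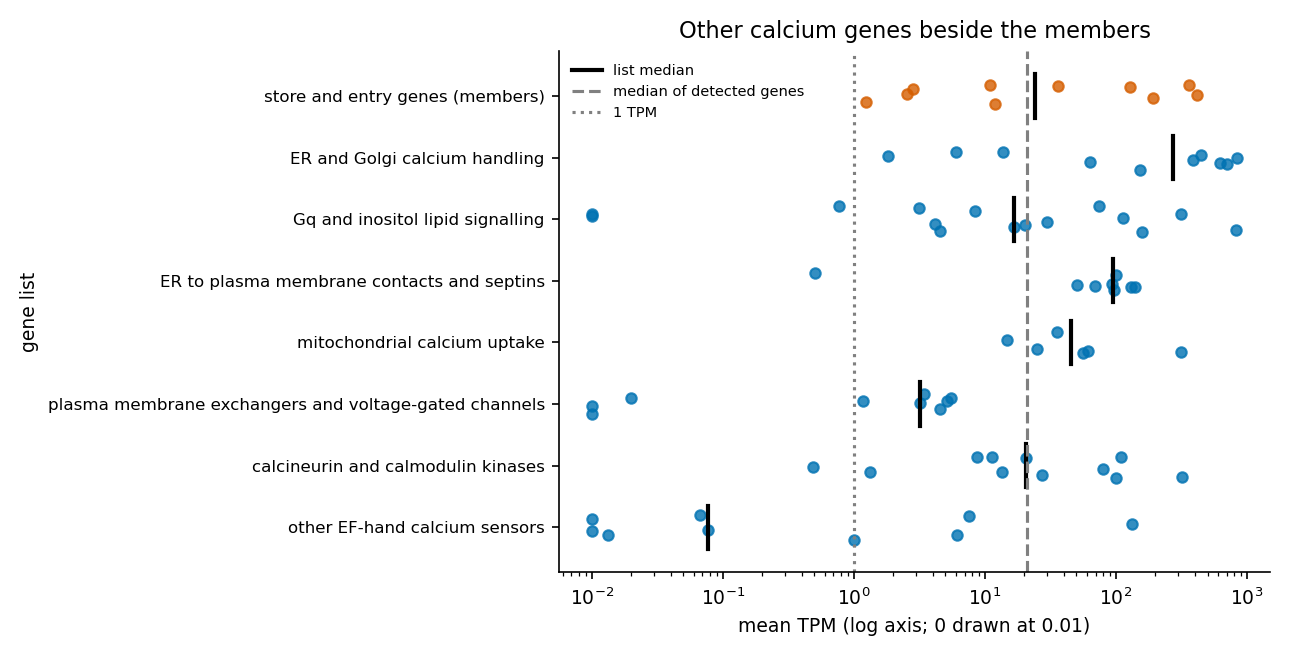
Mean TPM over 3 libraries on a log axis for the 10 store and entry genes (orange) and 68 further calcium genes in 7 lists (blue), 1 point per gene with 0 drawn at 0.01, list medians as black bars, the median of detected genes (20.9 TPM) as a dashed line and 1 TPM as a dotted line. Genes of the endoplasmic reticulum and Golgi lie highest, and exchangers with voltage-gated channels and the other EF-hand sensors lie lowest.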

How the data were processed

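Poly(A) RNA of sorted adult nephrocytes was measured in 3 libraries of 1 group. Per the study's methods and the submitters' processing notes, alignment was by STAR 2.7.5c and quantification by RSEM 1.3.3, with a FlyBase annotation of BDGP Release 6. The sources used here name no strand setting and no read filter. In the deposited files the expected counts are estimated reads per gene without normalization. The deposited TPM and FPKM were computed upstream by the authors on RSEM's effective length, and the files also give transcript length as RSEM's mean over isoforms. TPM was used as deposited, and FPKM only as an alternative for ranks.

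Symbols were matched to FlyBase IDs through a gene name table, 3 by synonym, 1 by letter case and 1 by transcript ID of 136 list entries. Coordinates are from BDGP6.54 (Ensembl release 115), whose transcripts of the 10 genes were all those in the files. The members and lists were chosen with earlier results of these data known. Named are all members, the 3 highest genes of each calcium list, the 2 highest of each cell type list, genes a member's result turns on, and the 3 genes nearest in pattern to *SERCA*, the highest member, and *Plc21C*, the one with the widest range. *up*, *fln*, *Mhc*, *TpnC47D*, *TpnC73F*, *Gbeta76C*, *inaC*, *cac*, *Acam* and *azot* were named after their values were seen. The 45 pairs were tested by exact two-sided sign flips of the library ratios, and p-values were adjusted by Benjamini and Hochberg. Each replicate was a pool of flies, so the SD and p-values measure the spread between 3 pools with their amplification. The trend on length was a lowess fit (fraction 0.3) per library. It was tested on simulated data with a straight-line trend on log length in library 2 alone. How well it fits the bend at the longest transcripts was therefore not tested. Expected counts were rounded to whole numbers for edgeR 4.0.16 and DESeq2 1.42.0. Statistics used scipy 1.17.1, statsmodels 0.14.6 and R 4.3.3. No sequences are printed, since none were used here.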

Additional observations from a re-analysis of the deposited data

How the results depend on the processing

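All 10 members were detected under 0.5 TPM in every library, 1 TPM in at least 2 libraries, 10 expected counts, and without each replicate (10 to 10), but 6 at 5 TPM and 6 at 10 TPM, where *Plc21C*, *Itpr*, *RyR* and *norpA* were lost. Of 315 alternatives for the log2 ratios 310 kept their direction. Many of these outcomes were fixed in advance. For the 41 pairs with the same sign in every library, adding 1 TPM, taking the median or leaving out a replicate could not reverse it. *Itpr* to *RyR* was -0.39 as a median and -0.43 to 0.40 with a replicate left out, *SERCA* to *Cam* was -0.22 to 0.61, and *MCU* to *Plc21C* was -0.15 to 0.81. In library 2 against libraries 1 and 3, *Stim* went from -0.01 to 0.17 with TMM, 0.14 with DESeq2 size factors, 0.14 with CPM and 0.15 with the length trend removed, which also took *RyR* to 0.054, *PMCA* to 0.26 and *MCU* to 0.056. These scalings moved the median of detected genes from -0.13 to between 0.03 and 0.06. Members lowest in library 2 were 5 under each scaling and 2 with the trend removed, where adjusted values replace the measured ones. Against genes of similar length and level, an alternative chosen after seeing the data, *RyR* went from 0.39 to -0.040 and *norpA* from 1.33 to 0.62. Leaving out mitochondrial and ribosomal RNA genes, which raises every TPM, took *Stim*, *olf186-F* and *norpA* beyond 1 SD. Causes were not tested. No paired analysis was possible because there is 1 group. Depth limits *norpA*, with 63 to 79 expected counts.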
